A study of Homo sapiens with 15 samples.

Results

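The difference between ANGPTL4 knockout (KO) and wild type (WT) cells was compared between 2 human clear cell renal cell carcinoma (ccRCC) cell lines, CAKi-1 and 786O, gene by gene. Bulk RNA-seq had been made from 4 CAKi-1 WT libraries, 5 CAKi-1 ANGPTL4 KO libraries, 3 786O WT libraries and 3 786O ANGPTL4 KO libraries. The question was which functions moved alike and which moved in opposite directions between WT and KO cells of each line. The comparison took every gene present in the expression tables of both lines, 15247 genes of the 17237 listed in either. KO cells were pools of CRISPR-Cas9 clones chosen because they had lost ANGPTL4 mRNA. 786O WT cells were pooled clones that had kept it, whereas for CAKi-1 WT the sources name both pooled clones and parental cells. CAKi-1 cells are described as carrying a normal VHL gene and 786O cells a mutated one. No drug or other treatment is named for any group, and the medium is RPMI in the labels and DMEM in the published methods. Nothing in the sources says that replicates came from separate cultures, so the p-values measure the spread between these libraries only. Each line had a KO pool set against a WT population, so loss of ANGPTL4 and other differences between these populations cannot be told apart.

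ANGPTL4 is a secreted protein of the angiopoietin-like family, best known as an inhibitor of lipoprotein lipase, the enzyme that frees fatty acids from circulating triglyceride. Its transcription is driven by peroxisome proliferator-activated receptors, which respond to fatty acids, and by hypoxia-inducible factors. VHL is the adaptor that marks the alpha subunits of those factors for destruction in oxygenated cells, and its loss is the founding lesion of most ccRCC. The NF-kB family, which recurs among the genes below, is a set of transcription factors released from inhibitor proteins by signals such as TNF and IL-1 and known for switching on chemokines, cytokines and acute-phase genes.

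Levels are given as TPM, a gene's share of all transcripts in a library on a fixed scale, corrected for transcript length. The effect in a line is the mean log2(TPM + 1) of its KO libraries minus that of its WT libraries, and the difference of effects is the CAKi-1 effect minus the 786O effect. A gene was called where limma gave a Benjamini-Hochberg adjusted p of at most 0.05 and an absolute value of at least 1 on this scale, either within a line or for the difference (the genotype by line interaction over all 15 libraries). Because 1 is added before the logarithm, changes of genes near or under 1 TPM are understated. The tables of the 2 lines were made separately, so a level set across lines carries any difference between those preparations, which a KO minus WT effect within a line does not.

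The libraries were not equally uniform. The median residual SD over genes was 0.135 on the log2 scale in CAKi-1 and 0.0713 in 786O, CAKi-1 KO replicates 1 and 4 stood apart from replicates 2, 3 and 5, and CAKi-1 WT replicates 3 and 4 held far more chemokine mRNA than replicates 1 and 2. The calls lost or gained without these libraries are given with the genes or with the processing results. PAX8, a renal lineage factor, and VIM, KRT8 and KRT18 were present in all groups, while CA9, a hypoxia target typical of ccRCC, was listed for 786O only. Summed endothelial markers reached at most 6.17 TPM in any library, all of it PECAM1 in the libraries where it was highest. Of 7 leukocyte markers 5 were listed for CAKi-1 and 3 for 786O. They summed to 56.9 to 60.4 TPM in CAKi-1 WT, 51.2 to 60.8 in CAKi-1 KO, 42.8 to 44.1 in 786O WT and 20.2 to 21.5 in 786O KO, nearly all of it CD68, a lysosomal glycoprotein found outside leukocytes too. The leukocyte antigen PTPRC reached at most 0.541 TPM. CD68 was 42.4 to 43.6 TPM in 786O WT and 19.3 to 20.9 TPM in 786O KO, and its part in the results below was not tested. Summed fibroblast markers were 24.4 to 34.1 TPM in CAKi-1 WT and 48.4 to 72.7 TPM in CAKi-1 KO, and 10.3 to 14.2 and 8.97 to 11.5 TPM in 786O WT and KO, with COL3A1 listed in neither line. COL1A1 was 9.35 to 11.8 TPM of this sum in CAKi-1 WT and 30.04 to 45.3 TPM in CAKi-1 KO. PDGFRB was 10.9 to 17.6 and 15.6 to 24.1 TPM there, and 0.354 to 0.491 and 3.47 to 5.63 TPM in 786O WT and KO. LUM went the other way, from 3.1 to 4.07 TPM in CAKi-1 WT to 1.17 to 2.27 in KO, and from 6.54 to 8.78 in 786O WT to 1.15 to 1.4 in KO. The share of all TPM in mitochondrially encoded genes also moved with the genotype in 786O, 7.47% to 8.16% in WT and 9.46% to 10.0% in KO, and the share in genes of both tables in CAKi-1, 99.7% to 99.8% in WT and 98.6% to 99.3% in KO. The part of these shares in the effects was not tested. In bulk samples, a change in the share of cells of 1 kind and a change in the RNA per cell cannot be told apart.

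In 786O, whole chromosomes also moved with the genotype. Over genes with a mean log2 level of at least 2, the median 786O effect was -0.77 for the 351 genes of chromosome 14, 0.50 for chromosome 13, 0.34 for chromosome 16, 0.30 for chromosome 9 and -0.29 for chromosome 22, whereas the CAKi-1 medians ran from -0.23 for chromosome 10 to 0.09, over the autosomes and chromosome X. Of those chromosome 14 genes, 32.5% were called as having the higher effect in CAKi-1, against 7.95% of all genes, and the share was 12.9% on chromosome 6. The lower effect in CAKi-1 was called for 13.9% of the genes of chromosome 16, 13.4% of chromosome 13 and 12.6% of chromosome 9, against 4.87% of all genes. Of the genes below with a called lower effect, SLC7A5, SULT1A1, ALDOA and TUBB3 lie on chromosome 16, COL4A1 on 13 and ALDH1A1, ABCA1 and PTGS1 on 9. Among those with the higher effect, HMGA1, HLA-B, HLA-C, HLA-F and NT5E lie on 6. For chromosome 14, which moved most, the chromosome is named beside each member. The part of a chromosome in its members' differences was not tested beyond the neighbour-centred values given with the processing results.

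**Figure D1:**
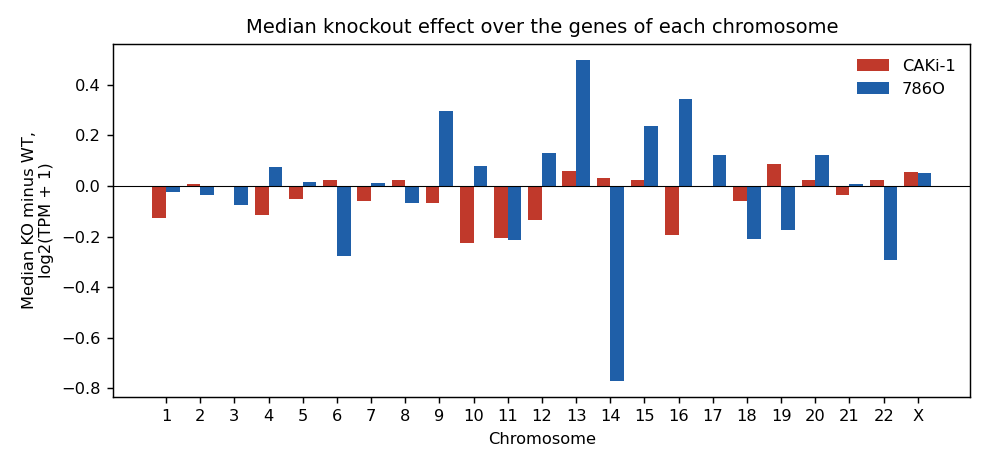
Median KO minus WT effect (log2(TPM + 1)) over the genes of each chromosome, for CAKi-1 (red bars) and 786O (blue bars), using genes with a mean log2 level of at least 2; chromosome Y and the mitochondrial genome are not shown. The 786O bar of chromosome 14 reaches -0.77 and that of chromosome 13 reaches 0.50, while no CAKi-1 bar lies below -0.23.

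Most genes that responded in 1 line did not respond alike in the other. In CAKi-1, 335 genes (2.2%) were called higher and 169 (1.11%) lower in KO, and in 786O 371 genes (2.43%) were called higher and 798 (5.23%) lower. Only 160 genes were called in both lines, which is 31.7% of the 504 CAKi-1 genes and 13.7% of the 1169 786O genes. Of these 160, 61 (0.4% of all genes) had moved in the same direction and 99 (0.649%) in opposite directions. Across all 15247 genes, which are not independent replicates and share their libraries, the effects in the 2 lines had a Pearson r of -0.09 and a Spearman rho of -0.10, and across the 1513 genes called in either line -0.03 and -0.02.

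The interaction itself was called for 1954 genes (12.8%), of which 1212 (7.95%) had the higher effect in CAKi-1 and 742 (4.87%) the lower. Among the 1212, the effects had opposite signs for 961, and 81 were called in opposite directions in both lines, 181 in CAKi-1 only, 548 in 786O only and 393 in neither. Chromosome 14 held 147 of the 1212 and 9 of the 742. With quantile-normalized values the share of interaction calls with the higher effect in CAKi-1 was 52.4% in place of 62%, so that the lean towards CAKi-1 depended on the scaling. The median difference over all genes was 0.03.

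**Figure D2:**
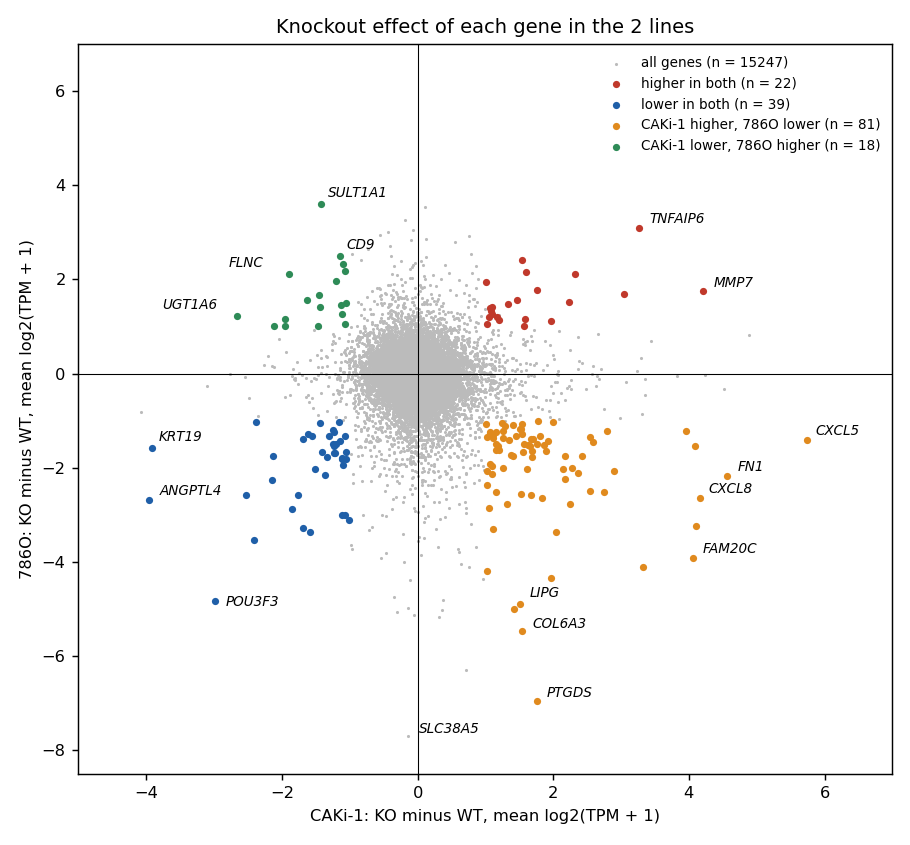
Effect in CAKi-1 (horizontal axis) against effect in 786O (vertical axis) for each of the 15247 genes, both as KO minus WT of mean log2(TPM + 1). Coloured points are the 160 genes called in both lines: 22 higher in both, 39 lower in both, 81 higher in CAKi-1 and lower in 786O, and 18 the reverse. The labelled SLC38A5 lies at -7.69 in 786O and near 0 in CAKi-1.

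ANGPTL4 (ENSG00000167772.12, chr19:8363289-8374370, plus strand), the targeted gene, fell in both lines. Its level was 74.9, 83.2, 86.9 and 71.7 TPM in CAKi-1 WT, 7.26, 2.87, 2.87, 6.47 and 2.9 in CAKi-1 KO, 20.6, 17.6 and 18.1 in 786O WT and 2.19, 2.17 and 1.86 in 786O KO. The groups did not overlap in either line, and CAKi-1 KO replicates 1 and 4 kept the most mRNA among the KO libraries. The effect was -3.96 in CAKi-1 (SE 0.25, adjusted p = 1e-05) and -2.69 in 786O (SE 0.073, adjusted p = 1.2e-06). The loss was deeper in CAKi-1, with a difference of -1.27 (SE 0.34, 95% interval -1.99 to -0.55, adjusted p = 0.0053), which ran from -1.68, with CAKi-1 KO replicates 2, 3 and 5 only, to -1.12, with a pseudocount of 0.1, over all alternatives. WT cells of CAKi-1 held more of this mRNA than WT cells of 786O, and the level left in KO cells was of the same order in both lines.

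The genes of fatty acid use and insulin signalling that the study names differed in how the lines moved. IRS2, an insulin receptor substrate, was higher in KO cells of both lines: it measured 4.18, 4.45, 3.61 and 4.8 TPM in CAKi-1 WT, 16.2, 8.73, 7.18, 17.9 and 7.75 in CAKi-1 KO, 47.2, 46.3 and 44 in 786O WT and 104, 107 and 107 in 786O KO. Its effects were 1.17 in CAKi-1 (SE 0.26, adjusted p = 0.0063) and 1.19 in 786O (SE 0.041, adjusted p = 2.6e-06), with a difference of -0.02 (SE 0.34, 95% interval -0.75 to 0.70, adjusted p = 0.96), and the CAKi-1 call was lost without KO replicate 4, with KO replicates 2, 3 and 5 only, with WT replicates 1 and 2 only and after neighbour centring. IRS1, its close relative, was called in CAKi-1 only, with effects of 1.02 in CAKi-1 and -0.02 in 786O and a difference of 1.04 (SE 0.13, adjusted p = 1.1e-05); that call was lost with quantile normalization, after neighbour centring, without CAKi-1 WT replicate 1, without CAKi-1 KO replicate 4 and with KO replicates 2, 3 and 5 only. PPARGC1A, a coactivator of mitochondrial gene expression, was higher in all KO libraries than in all WT libraries of both lines. It measured 0.805, 0.209, 0.467 and 0.458 TPM in CAKi-1 WT, 2.3, 1.51, 1.64, 2.1 and 1.17 in CAKi-1 KO, 1.46, 2.24 and 1.42 in 786O WT and 10.8, 8.95 and 9.55 in 786O KO. The 786O effect was the larger, 0.88 in CAKi-1 and 2.0 in 786O, with a difference of -1.12 (SE 0.22, adjusted p = 0.00061) that fell under the threshold with a pseudocount of 0.1.

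CPT1A and CPT1B, the isoforms of the enzyme that admits long-chain fatty acids to mitochondria, moved differently from each other. CPT1A measured 0.957, 1.09, 0.875 and 0.769 TPM in CAKi-1 WT, 1.64, 1.17, 0.859, 1.61 and 1.38 in CAKi-1 KO, 0.976, 1.07 and 0.767 in 786O WT and 5.99, 5.69 and 6.39 in 786O KO, so that only 786O showed separate groups. Its effects were 0.27 in CAKi-1 and 1.86 in 786O, a difference of -1.59 (SE 0.15, adjusted p = 9.6e-07). CPT1B, in contrast, measured 2.49, 2.3, 1.42 and 2.97 TPM in CAKi-1 WT, 14.8, 6.44, 6.5, 14.6 and 7.53 in CAKi-1 KO, 28.7, 27 and 34.1 in 786O WT and 11.2, 10.2 and 10.7 in 786O KO. It rose in CAKi-1 and fell in 786O, with effects of 1.67 in CAKi-1 (SE 0.27, adjusted p = 0.0013) and -1.40 in 786O (SE 0.089, adjusted p = 2.8e-05) and a difference of 3.07 (SE 0.36, adjusted p = 8.4e-06), and the call in both lines was lost after neighbour centring. CPT1B shares its exons with the read-through gene CHKB-CPT1B, which gave 1.25 in CAKi-1 and -1.36 in 786O, so reads of the pair may have been split. PPARA, a fatty acid sensor, had effects of 0.65 in CAKi-1 and -0.30 in 786O and a difference of 0.95 (SE 0.27, adjusted p = 0.0082), just under the size threshold. For LIPA, which encodes lysosomal acid lipase, and VHL the effects also had opposite signs but were small, 0.49 in CAKi-1 and -0.13 in 786O for LIPA and 0.30 in CAKi-1 and -0.28 in 786O for VHL, with differences of 0.62 (SE 0.076, adjusted p = 1.3e-05) and 0.58 (SE 0.10, adjusted p = 0.00024). LPL was listed for CAKi-1 only and was not compared.

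Genes that rose in both lines numbered 22, all protein-coding, which is 6.57% of the 335 genes called higher in CAKi-1 and 5.93% of the 371 called higher in 786O. Of all genes, 2.43% were called higher in 786O and 2.2% higher in CAKi-1. The 22 were TNFAIP6, CCL5, PLEK, MMP7, SAA1, PLXDC2, UBD, JUP, MACROD2, PDZK1IP1, IRS2, PGBD5, SLITRK4, CX3CL1, NDRG1, ID3, TSPAN12, DYSF, BDH1, CP, NPY1R and GASK1B, in the order of the smaller of their 2 effects. Of the 22, 12 had a difference of effects whose 95% interval lay between -1 and 1, and for 1, MMP7, the interaction was called. None lies on chromosome 14.

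Several of the genes at the head of that list are inflammatory. TNFAIP6 (ENSG00000123610.5, chr2:151357592-151380046, plus strand), a secreted hyaluronan-binding protein induced by TNF and IL-1, measured 0.8, 1.11, 2.78 and 9.06 TPM in CAKi-1 WT, 49.96, 27.6, 21.6, 50.03 and 23.3 in CAKi-1 KO, 0.466, 0.859 and 0.454 in 786O WT and 11.8, 13.8 and 12 in 786O KO. CAKi-1 WT replicate 4 was the highest WT library, yet still below every KO library. The effects were 3.26 in CAKi-1 (SE 0.49, adjusted p = 0.00089) and 3.09 in 786O (SE 0.11, adjusted p = 3.2e-06), with a difference of 0.17 (SE 0.66, 95% interval -1.24 to 1.58, adjusted p = 0.85), an interval too wide to say that the lines responded by the same amount. CCL5, a chemokine for T cells and monocytes, measured 0.316, 0.603, 0.465 and 1.37 TPM in CAKi-1 WT, 9.88, 5.85, 5, 11 and 5.89 in CAKi-1 KO, 3.31, 2.85 and 2.95 in 786O WT and 15.7, 15.8 and 18.3 in 786O KO. Its effects were 2.32 in CAKi-1 and 2.12 in 786O, and the difference of 0.19 (SE 0.32, 95% interval -0.50 to 0.89, adjusted p = 0.64) did not pass the test. SAA1, an acute-phase apolipoprotein, was highly expressed in CAKi-1 and far less in 786O, with 247, 253, 668 and 1774 TPM in CAKi-1 WT, 4727, 4192, 3808, 5076 and 3897 in CAKi-1 KO, 23.3, 28.6 and 22.4 in 786O WT and 76.5, 81.7 and 88.6 in 786O KO. Both lines rose, by 3.04 in CAKi-1 and 1.70 in 786O, and the difference of 1.35 (SE 0.68, 95% interval -0.12 to 2.82, adjusted p = 0.11) passed only with CAKi-1 WT replicates 1 and 2, without WT replicate 4 or with a spread of its own for each line. SAA1 and SAA2 are near-identical copies, so reads of the pair may have been shared between them.

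UBD, a ubiquitin-like modifier induced by interferon-gamma and TNF, measured 1.72, 1.13, 2.76 and 2.15 TPM in CAKi-1 WT, 5.99, 8.56, 6.65, 8.31 and 7.71 in CAKi-1 KO, 0.24, 0.0865 and 0.0533 in 786O WT and 5.64, 4.67 and 4.6 in 786O KO. Its effects were 1.54 in CAKi-1 and 2.41 in 786O, and the difference of -0.86 (SE 0.22, adjusted p = 0.0047) stayed under the size threshold. In 786O WT it was close to 0. The difference was called with a pseudocount of 0.1, with quantile normalization, after neighbour centring and without CAKi-1 WT replicate 2. PLEK, the pleckstrin of platelets and leukocytes, was raised almost equally. It measured 0.0894, 0.13, 0.119 and 0.225 TPM in CAKi-1 WT, 3.09, 2.97, 2.76, 2.85 and 2.66 in CAKi-1 KO, 3.45, 3.74 and 3.02 in 786O WT and 14.6, 13.8 and 14 in 786O KO, with effects of 1.76 in CAKi-1 and 1.78 in 786O and a difference of -0.02 (SE 0.087, 95% interval -0.21 to 0.16, adjusted p = 0.84); in CAKi-1 WT it was close to 0, and with a pseudocount of 0.1 the difference was called. MMP7, an epithelial metalloproteinase that cuts matrix and cell-surface proteins, measured 5.69, 3.9, 8.17 and 9.64 TPM in CAKi-1 WT, 75.6, 205, 169, 115 and 165 in CAKi-1 KO, 6.03, 6.85 and 6.74 in 786O WT and 24.2, 24.8 and 23.8 in 786O KO. Its rise was larger in CAKi-1, 4.21 in CAKi-1 and 1.75 in 786O, by 2.46 (SE 0.41, 95% interval 1.58 to 3.35, adjusted p = 0.00018). JUP, the plakoglobin of desmosomes, and PLXDC2, a transmembrane receptor, had effects of 2.23 and 1.51 and of 1.61 and 2.15 in CAKi-1 and 786O, and the difference of JUP was called without CAKi-1 WT replicate 4 and with WT replicates 1 and 2 only. Of the hypoxia-regulated and growth-factor genes in the group, NDRG1 rose by 1.10 and 1.42 and ID3, a BMP target, by 1.10 and 1.27, and both CAKi-1 calls were lost with KO replicates 2, 3 and 5 only and without KO replicate 1, that of NDRG1 also without KO replicate 4, without any single WT replicate and with WT replicates 1 and 2 only. The call of CP, the copper carrier ceruloplasmin (1.02 and 1.05), was lost with quantile normalization, after neighbour centring, with KO replicates 2, 3 and 5 only and without CAKi-1 KO replicate 4 or WT replicate 1 or 2.

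Genes that fell in both lines numbered 39, all protein-coding, which is 23.1% of the 169 genes called lower in CAKi-1 and 4.89% of the 798 called lower in 786O. Of all genes, 5.23% were called lower in 786O and 1.11% lower in CAKi-1. Among the 39, 21 had a difference whose 95% interval lay between -1 and 1, and the interaction was called for 11. Besides ANGPTL4, the 39 were POU3F3, SYTL2, WNT7B, MATN2, SHC3, OXTR, STC2, HMGA1, BST1, KRT19, CRISPLD2, GLI2, SIGLEC15, HAS3, C19orf33, CCN5, ADAMTS15, AFAP1L2, CHST9, TUBB2A, LPXN, TNFRSF9, MYO5B, MDGA1, PLAU, WSCD1, TUBB4A, MELTF, EFEMP1, KCNK3, PKIB, DNER, UBASH3B, BMPER, NUPR1, ISYNA1, TUBB3 and GNG4. None lies on chromosome 14. The group holds 3 beta-tubulin genes, whose sequences are closely related.

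POU3F3 (ENSG00000198914.5, chr2:104853287-104858574, plus strand), a transcription factor of the developing nephron and brain, was nearly lost in both lines. It measured 8.1, 6.76, 7.5 and 7.76 TPM in CAKi-1 WT, 0.072, 0.0897, 0.0611, 0.0768 and 0.0781 in CAKi-1 KO, 31.8, 31.2 and 30.9 in 786O WT and 0.143, 0.0746 and 0.192 in 786O KO. Its effects were -2.98 in CAKi-1 (SE 0.054, adjusted p = 5.2e-09) and -4.83 in 786O (SE 0.048, adjusted p = 7.1e-08), and the difference of 1.84 (SE 0.075, 95% interval 1.68 to 2.01, adjusted p = 2.7e-10) is bounded by the WT levels, since KO cells of both lines were under 0.2 TPM. SYTL2, an effector of Rab27 in vesicle transport, fell by nearly the same factor in each line. It measured 26.9, 29, 25.4 and 18.4 TPM in CAKi-1 WT, 2.87, 3.6, 3.35, 3.92 and 3.46 in CAKi-1 KO, 118, 123 and 120.2 in 786O WT and 19.6, 19 and 19.3 in 786O KO, with effects of -2.53 in CAKi-1 and -2.58 in 786O and a difference of 0.05 (SE 0.16, 95% interval -0.30 to 0.40, adjusted p = 0.82). MATN2, a matrilin of the extracellular matrix, behaved similarly, with effects of -2.14 in CAKi-1 and -2.27 in 786O and a difference of 0.12 (SE 0.15, 95% interval -0.20 to 0.45, adjusted p = 0.52). PLAU, the urokinase that activates plasminogen, measured 424, 459, 536 and 576 TPM in CAKi-1 WT, 191, 208, 237, 191 and 218 in CAKi-1 KO, 72.3, 70.3 and 70.7 in 786O WT and 29.7, 31.7 and 30.4 in 786O KO. Its effects of -1.25 in CAKi-1 and -1.19 in 786O gave a difference of -0.06 (SE 0.14, 95% interval -0.35 to 0.24, adjusted p = 0.75).

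WNT7B, a Wnt ligand, measured 20.1, 19.3, 15.1 and 8.63 TPM in CAKi-1 WT, 1.13, 2.44, 2.6, 1.42 and 2.91 in CAKi-1 KO, 63.5, 61 and 59.3 in 786O WT and 4.77, 4.11 and 4.24 in 786O KO. Its effects were -2.41 in CAKi-1 and -3.54 in 786O, and the called difference of 1.12 (SE 0.35, adjusted p = 0.013) was lost with a pseudocount of 0.1, with quantile normalization, after neighbour centring, without CAKi-1 WT replicate 4 and with WT replicates 1 and 2 only. OXTR, the oxytocin receptor, had effects of -1.76 and -2.58 and STC2, a secreted glycoprotein of the endoplasmic reticulum stress response, of -2.13 and -1.74, in CAKi-1 and 786O, with no call for either difference. That of OXTR was called without CAKi-1 KO replicate 1, with KO replicates 2, 3 and 5 only and with a pseudocount of 0.1. SHC3, an adaptor of receptor tyrosine kinases, fell by more in 786O, -1.85 in CAKi-1 and -2.87 in 786O, with a difference of 1.03 (SE 0.19, adjusted p = 0.00049) that was lost with quantile normalization, with the replicate block, with CAKi-1 WT replicates 1 and 2 only and without CAKi-1 WT replicate 4, CAKi-1 KO replicate 3 or 5, 786O WT replicate 1 or 786O KO replicate 2. KRT19, a keratin of simple epithelia, measured 259, 256, 207 and 175 TPM in CAKi-1 WT, 9.78, 17.5, 16.8, 10.1 and 16.6 in CAKi-1 KO, 397, 396 and 408 in 786O WT and 133, 132 and 136 in 786O KO. In this gene the larger fall was in CAKi-1, -3.92 in CAKi-1 and -1.58 in 786O, by -2.34 (SE 0.27, 95% interval -2.91 to -1.77, adjusted p = 5.8e-06).

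**Figure D3:**
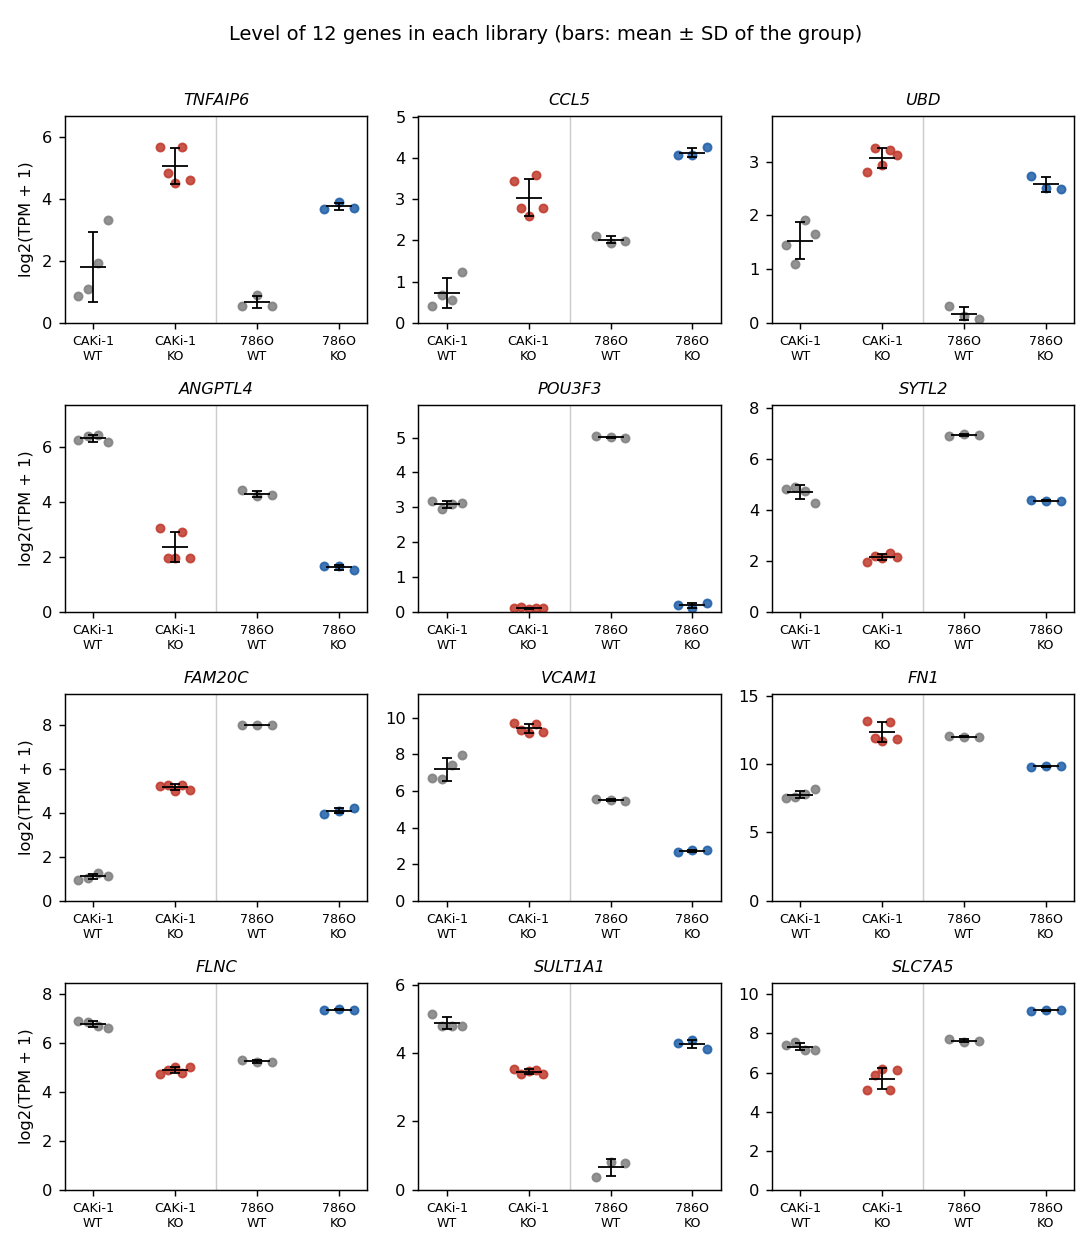
Level of 12 genes in each of the 15 libraries as log2(TPM + 1) (points), with the mean and SD of each group (bars), CAKi-1 on the left and 786O on the right of each panel. The top row rose in KO of both lines, the second row fell in both, the third row rose in CAKi-1 and fell in 786O, and the fourth row did the reverse.

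Genes higher in CAKi-1 KO and lower in 786O KO formed the largest class, with 81 genes, which is 24.2% of the genes called higher in CAKi-1 and 10.2% of those called lower in 786O. Of all genes, 2.2% were called higher in CAKi-1 and 5.23% lower in 786O, the larger list of each line, and the genes called lower in CAKi-1 also held 23.1% called lower in 786O. The interaction was called for all 81, as their definition requires of the size though not of the p. Their median effect was 1.57 in CAKi-1 and -1.65 in 786O, 79 are protein-coding and 6 lie on chromosome 14, among them SERPINA1, PAPLN, PTGER2, DACT1 and SLC7A7. For CXCL8, IL6 and CEBPD the WT and KO libraries overlapped in CAKi-1. With CAKi-1 KO replicates 2, 3 and 5 only, 63 genes were in this class, 62 of them shared, and with CAKi-1 WT replicates 1 and 2 only there were 82, of which 75 were shared. With a pseudocount of 0.1 there were 151, the 81 among them.

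The class joined genes whose WT level differed between the lines. Of the 81, 67 were higher in 786O WT than in CAKi-1 WT, 71 were higher in CAKi-1 KO than in 786O KO, and for 57 both held. Over all 15247 genes these counts were 8593, 7133 and 2601. A called fall in 786O requires expression in 786O WT, so the choice of genes itself favours a high level there. The median gap between the lines, CAKi-1 minus 786O, was -1.74 in WT and 2.02 in KO, against -0.08 and -0.04 over all genes. The step from the first gap to the second is the difference of effects, which the definition of the class fixes, so it is a description only. These gaps set levels across tables that were prepared separately.

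FAM20C (ENSG00000177706.9, chr7:192571-260772, plus strand), the Golgi kinase that phosphorylates secreted proteins, headed the class. It measured 0.947, 1.07, 1.4 and 1.2 TPM in CAKi-1 WT, 36.3, 38, 30.5, 37.1 and 32.1 in CAKi-1 KO, 255, 256 and 257 in 786O WT and 14.6, 16.2 and 17.4 in 786O KO. Every KO library of CAKi-1 was above every WT library, and every KO library of 786O was below. The effects were 4.05 in CAKi-1 (SE 0.086, adjusted p = 1.2e-08) and -3.92 in 786O (SE 0.064, adjusted p = 2.3e-07), a difference of 7.97 (SE 0.12, 95% interval 7.71 to 8.23, adjusted p = 1.6e-14). SORCS2 (ENSG00000184985.16, chr4:7192538-7742836, plus strand), a sorting receptor of the Vps10 family, measured 1.36, 1.35, 1.78 and 2.55 TPM in CAKi-1 WT, 34.5, 23.7, 22.3, 33 and 20.2 in CAKi-1 KO, 20.7, 18.6 and 17.1 in 786O WT and 0.134, 0.09 and 0.197 in 786O KO, with effects of 3.32 in CAKi-1 and -4.12 in 786O and a difference of 7.43 (SE 0.25, 95% interval 6.90 to 7.97, adjusted p = 3.8e-11). TNFRSF11B, the decoy receptor osteoprotegerin, measured 2.43, 3.06, 4.95 and 11.2 TPM in CAKi-1 WT, 168, 75.4, 65.4, 156 and 64.3 in CAKi-1 KO, 17.4, 18.7 and 17 in 786O WT and 0.82, 0.944 and 1.22 in 786O KO. Its effects were 4.11 in CAKi-1 and -3.23 in 786O, a difference of 7.34 (SE 0.57, 95% interval 6.12 to 8.57, adjusted p = 1.5e-07). The 2 KO libraries that stood apart, replicates 1 and 4, were the highest for both SORCS2 and TNFRSF11B.

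The neutrophil-attracting chemokines CXCL8, CXCL1 and CXCL5 belonged to this class, but rested on uneven WT libraries. CXCL8 (ENSG00000169429.12, chr4:73740519-73743716, plus strand) measured 7.51, 12.1, 278 and 1346 TPM in CAKi-1 WT, 2177, 1252, 1174, 2029 and 964 in CAKi-1 KO, 15.7, 17.9 and 15 in 786O WT and 1.57, 1.72 and 2 in 786O KO. CAKi-1 WT replicate 4 lay inside the KO range, whereas the 786O groups were far apart. The effects were 4.16 in CAKi-1 (SE 1.35, adjusted p = 0.034) and -2.64 in 786O (SE 0.084, adjusted p = 2.1e-06), with a difference of 6.80 (SE 1.77, 95% interval 2.99 to 10.61, adjusted p = 0.005), and the CAKi-1 call was lost without any single KO replicate from 1 to 4, without WT replicate 1 or 2, with KO replicates 2, 3 and 5 only and with a spread shared by both lines. CXCL5 measured 15.2, 19.6, 93.5 and 312 TPM in CAKi-1 WT, 3285, 2997, 2937, 3304 and 2586 in CAKi-1 KO, 18.3, 18.5 and 18.1 in 786O WT and 6.7, 6.17 and 6.06 in 786O KO. Here every CAKi-1 KO library was far above the highest WT library. Its effects were 5.75 in CAKi-1 (SE 0.76, adjusted p = 0.00044) and -1.40 in 786O (SE 0.044, adjusted p = 2.1e-06), a difference of 7.15 (SE 1.0, 95% interval 5.00 to 9.29, adjusted p = 3.8e-05); the CAKi-1 call was lost only with a spread shared by both lines. CXCL1 measured 24.5, 48.6, 736 and 2943 TPM in CAKi-1 WT, 4663, 3875, 3665, 4352 and 3062 in CAKi-1 KO, 10.1, 8.85 and 9.74 in 786O WT and 2.72, 2.3 and 2.82 in 786O KO, with effects of 4.08 in CAKi-1 and -1.55 in 786O and a difference of 5.63 (SE 1.61, adjusted p = 0.0088), and its CAKi-1 call was lost without WT replicate 1 or 2, with KO replicates 2, 3 and 5 only and with a spread shared by both lines.

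The cytokines IL6 and IL11 and the adhesion molecule VCAM1 were in the same class. IL6 measured 5.38, 10.7, 33.2 and 145 TPM in CAKi-1 WT, 269, 134, 157, 217 and 117 in CAKi-1 KO, 29, 33.2 and 32.6 in 786O WT and 13.7, 12.6 and 12.6 in 786O KO. As for CXCL8, 1 CAKi-1 WT library lay inside the KO range, and the call of the CAKi-1 effect was lost without WT replicate 2, with KO replicates 2, 3 and 5 only and with a spread shared by both lines. The effects were 2.80 in CAKi-1 and -1.22 in 786O, with a difference of 4.02 (SE 1.02, adjusted p = 0.0043). IL11, a cytokine that signals through the same gp130 receptor chain, had steadier WT libraries. It measured 11.2, 9.17, 10.1 and 11.4 TPM in CAKi-1 WT, 66.4, 37.8, 42.9, 59.2 and 32.8 in CAKi-1 KO, 23.8, 24.1 and 23.8 in 786O WT and 1.16, 1.27 and 1.83 in 786O KO, with effects of 2.05 in CAKi-1 (SE 0.19, adjusted p = 7.7e-05) and -3.37 in 786O (SE 0.10, adjusted p = 1.6e-06) and a difference of 5.42 (SE 0.27, 95% interval 4.84 to 6.0, adjusted p = 1.8e-09). VCAM1, the endothelial and epithelial adhesion molecule that binds integrin alpha 4, measured 105, 98.2, 169 and 249 TPM in CAKi-1 WT, 830.3, 654, 569.9, 823 and 601 in CAKi-1 KO, 46, 44.3 and 42.5 in 786O WT and 5.36, 5.74 and 5.86 in 786O KO. It gave 2.24 in CAKi-1 and -2.77 in 786O, a difference of 5.01 (SE 0.35, 95% interval 4.26 to 5.75, adjusted p = 4.9e-08). CLEC4E, a receptor for microbial and dead-cell glycolipids, had 2.54 in CAKi-1 and -2.49 in 786O, and SOCS1, an inhibitor of cytokine receptors, had 1.68 in CAKi-1 and -1.65 in 786O.

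Because several of these are textbook NF-kB targets, the promoters of the genes called in both lines were searched for an NF-kB site. RefSeq promoter windows (GRCh38.p14, 250 bases before to 50 after the start) were found for 11714 of the 15247 genes, and the kappaB consensus was searched on both strands. It occurred in 13% of all these windows, in 15 of 58 (25.9%) of those higher in CAKi-1 and lower in 786O, in 3 of 17 (17.6%) of those higher in both, in 4 of 28 (14.3%) of those lower in both and in 1 of 12 (8.33%) of the reverse class. Over all genes called in the interaction it occurred in 206 of 1484 (13.9%), near the share of all windows. The core ACGTG bound by hypoxia-inducible factors, searched in the same windows on both strands, occurred in 25.5% of all, 3 of 58 (5.17%), 2 of 17 (11.8%), 3 of 28 (10.7%) and 2 of 12 (16.7%), and in 22.2% of the windows of genes called in the interaction. These are matches of letters, given as a description with no test. The stretches around the match of 4 genes that moved in opposite directions and of UBD, which rose in both lines, show that the same kind of match stood before genes of both classes. Capitals mark the match, and each is read 5′ to 3′ on the strand of the gene.
CXCL1, chr4:73869284-73869354, plus strand: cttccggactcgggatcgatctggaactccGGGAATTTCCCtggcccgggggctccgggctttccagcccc
CXCL5, chr4:73998728-73998798, minus strand: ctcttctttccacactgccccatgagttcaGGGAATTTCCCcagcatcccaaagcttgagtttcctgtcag
IL6, chr7:22727097-22727166, plus strand: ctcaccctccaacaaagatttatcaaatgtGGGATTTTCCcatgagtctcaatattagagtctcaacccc
VCAM1, chr1:100719650-100719719, plus strand: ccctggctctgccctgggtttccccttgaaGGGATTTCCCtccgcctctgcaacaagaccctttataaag
UBD, chr6:29559746-29559815, minus strand: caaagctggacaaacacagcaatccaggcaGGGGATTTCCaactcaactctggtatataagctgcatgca

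The match began 79 bases before the start for CXCL1, 91 for CXCL5, 73 for IL6, 62 for VCAM1 and 53 for UBD. The other windows with a match among the genes higher in CAKi-1 and lower in 786O belonged to SGPP2, ERFE, COL7A1, CLDN1, SH2B2, PTGER2, BMF, SOCS1, LPAR2, CBS and COL6A2. The windows of CXCL8, IL11, CLEC4E and, among the genes higher in both lines, TNFAIP6 held no match, which says only that these letters are not in this window.

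The class also held FN1 and, of the 21 collagen chains of the list described later, 6. FN1 (ENSG00000115414.21, chr2:215360440-215436073, minus strand), fibronectin, was among the most abundant mRNAs of the comparison. It measured 181, 197, 219.7 and 287 TPM in CAKi-1 WT, 9235, 3879, 3311, 8692 and 3599 in CAKi-1 KO, 4199.9, 3997 and 4043 in 786O WT and 897, 909 and 919.9 in 786O KO. CAKi-1 KO cells thus rose from far below to around the level of 786O WT cells, while 786O KO cells fell, and CAKi-1 KO replicates 1 and 4 were more than double replicates 2, 3 and 5. The effects were 4.57 in CAKi-1 (SE 0.34, adjusted p = 2.1e-05) and -2.16 in 786O (SE 0.037, adjusted p = 2.8e-07), a difference of 6.73 (SE 0.44, 95% interval 5.78 to 7.68, adjusted p = 3e-08). COL6A3, a chain of collagen VI, measured 10.2, 12.7, 9.81 and 7.86 TPM in CAKi-1 WT, 21.7, 37.2, 35.7, 24.4 and 40.9 in CAKi-1 KO, 319.9, 303 and 308 in 786O WT and 6.18, 6.01 and 5.96 in 786O KO. Its effects of 1.54 in CAKi-1 and -5.46 in 786O gave a difference of 7.0 (SE 0.26, 95% interval 6.44 to 7.57, adjusted p = 1.1e-10). The partner chains moved the same way, COL6A1 by 1.52 and -1.18 and COL6A2 by 1.26 and -1.22 in CAKi-1 and 786O, as did COL7A1 (1.45 and -1.33), COL16A1 (1.89 and -1.64), COL14A1 (2.90 and -2.06) and the microfibril protein FBN1 (1.54 and -1.28). ADAMTS5, a protease that cuts aggrecan, had 2.17 in CAKi-1 and -2.25 in 786O and the integrin ITGB3 had 1.70 in CAKi-1 and -1.38 in 786O.

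PTGDS and LIPG, enzymes of lipid mediators and lipoproteins, were in the class with large falls in 786O. PTGDS (ENSG00000107317.13, chr9:136975092-136981742, plus strand), prostaglandin D2 synthase, had the largest difference of effects of all genes. It measured 5.36, 4.03, 3.72 and 3.1 TPM in CAKi-1 WT, 29, 11.2, 13.4, 28.7 and 7.66 in CAKi-1 KO, 309, 301 and 315 in 786O WT and 1.29, 1.36 and 1.83 in 786O KO. CAKi-1 KO libraries exceeded all WT libraries but spread widely, and 786O KO libraries were under 2 TPM. The effects were 1.76 in CAKi-1 (SE 0.37, adjusted p = 0.0047) and -6.96 in 786O (SE 0.083, adjusted p = 8.9e-08), a difference of 8.72 (SE 0.48, 95% interval 7.68 to 9.76, adjusted p = 5.5e-09), and the CAKi-1 call was lost with WT replicates 1 and 2 only. LIPG, endothelial lipase, an enzyme of the lipoprotein lipase family, measured 0.734, 0.806, 1.5 and 2.29 TPM in CAKi-1 WT, 5.38, 5.48, 5.08, 6.95 and 4.42 in CAKi-1 KO, 52.3, 53.3 and 49.7 in 786O WT and 0.506, 0.88 and 1 in 786O KO. Its effects were 1.51 in CAKi-1 and -4.89 in 786O, a difference of 6.40 (SE 0.26, 95% interval 5.83 to 6.96, adjusted p = 2.9e-10). PTGER2, a prostaglandin E2 receptor on chromosome 14, had 1.52 in CAKi-1 and -2.56 in 786O, and ALOX5AP, which presents arachidonic acid to 5-lipoxygenase, had 1.34 in CAKi-1 and -1.42 in 786O. SERPINA1, the acute-phase antiprotease alpha-1 antitrypsin, also on chromosome 14, measured 13.6, 10.3, 18.4 and 24.8 TPM in CAKi-1 WT, 66.4, 82.2, 75.3, 67.5 and 77.3 in CAKi-1 KO, 125, 120.1 and 118 in 786O WT and 28.2, 30.3 and 27.9 in 786O KO. It gave 2.14 in CAKi-1 and -2.03 in 786O, a difference of 4.17 (SE 0.27, 95% interval 3.58 to 4.76, adjusted p = 2.7e-08).

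Genes lower in CAKi-1 KO and higher in 786O KO numbered 18, which is 10.7% of the genes called lower in CAKi-1 and 4.85% of those called higher in 786O. Of all genes, 2.43% were called higher in 786O and 1.11% lower in CAKi-1. After neighbour centring the class held 13 genes, 10 of them shared, and with a pseudocount of 0.1 it held 42, the 18 among them. The median effects of the 18 were -1.43 and 1.47, 16 are protein-coding and none lies on chromosome 14. Besides 8 described next, they were SFN, TRIM55, ECHDC3, CLDN4, CMKLR2, KCNJ8, AP1M2, UNC13C and the pseudogenes RNA5SP236 and GGT8P. Of the 18, 6 were higher in 786O WT than in CAKi-1 WT, and 3 were higher in CAKi-1 KO than in 786O KO. Over all 15247 genes these counts were 8593 and 7133.

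FLNC (ENSG00000128591.16, chr7:128830406-128859274, plus strand), a filamin that crosslinks actin in muscle and other cells, measured 118, 116, 104 and 98.5 TPM in CAKi-1 WT, 25.9, 29, 31.2, 26.3 and 31.2 in CAKi-1 KO, 38.6, 36.1 and 36.7 in 786O WT and 164, 168 and 161 in 786O KO. The effects were -1.89 in CAKi-1 (SE 0.082, adjusted p = 1e-06) and 2.12 in 786O (SE 0.041, adjusted p = 4.1e-07), a difference of -4.01 (SE 0.11, 95% interval -4.24 to -3.77, adjusted p = 5.2e-12). ANKRD2, a stretch-responsive muscle ankyrin repeat protein, followed it with -1.46 in CAKi-1 and 1.67 in 786O and a difference of -3.13 (SE 0.17, adjusted p = 4.1e-09). SLC7A5, the light chain of the large neutral amino acid transporter LAT1, measured 172, 185, 144 and 142 TPM in CAKi-1 WT, 34, 58.4, 72.7, 33.9 and 68.7 in CAKi-1 KO, 208, 189.9 and 195 in 786O WT and 577, 592 and 584 in 786O KO. It gave -1.63 in CAKi-1 and 1.56 in 786O, a difference of -3.20 (SE 0.32, 95% interval -3.89 to -2.50, adjusted p = 1.9e-06), and its heavy chain SLC3A2, which passed no call within a line, gave -0.97 and 0.69 with a called difference of -1.66 (SE 0.18, adjusted p = 3.4e-06). EEF1A2, a translation elongation factor, had -1.44 in CAKi-1 and 1.42 in 786O and a difference of -2.86 (SE 0.074, adjusted p = 4e-12).

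SULT1A1 and UGT1A6, enzymes that conjugate drugs and hormones, were in this class as well. SULT1A1, a phenol sulfotransferase, measured 34.2, 26.8, 26.5 and 26.8 TPM in CAKi-1 WT, 10.5, 9.34, 10.0, 10.3 and 9.47 in CAKi-1 KO, 0.282, 0.756 and 0.726 in 786O WT and 18.5, 19.7 and 16.5 in 786O KO. With -1.43 in CAKi-1 and 3.61 in 786O, its difference of -5.04 (SE 0.16, 95% interval -5.37 to -4.70, adjusted p = 2.1e-11) was the largest negative one of all genes. UGT1A6, a glucuronosyltransferase, measured 55.2, 47.4, 50.3 and 43.3 TPM in CAKi-1 WT, 9.87, 5.24, 6.67, 7.9 and 5.47 in CAKi-1 KO, 144, 139 and 144 in 786O WT and 322, 336 and 348 in 786O KO, with effects of -2.67 in CAKi-1 and 1.23 in 786O and a difference of -3.90 (SE 0.21, adjusted p = 4.1e-09). Both have close relatives that share sequence with them, so their levels are uncertain. ALDH1A1, a retinal and aldehyde dehydrogenase, and GLMP, a lysosomal membrane protein, were called in 786O only but had similarly large differences, with effects of -0.96 and 2.54 and of -0.55 and 2.95 in CAKi-1 and 786O and differences of -3.50 (SE 0.17, adjusted p = 1.2e-09) and -3.50 (SE 0.12, adjusted p = 5.9e-11). CD9, a tetraspanin of membranes and exosomes, measured 35.8, 38.9, 36 and 35.4 TPM in CAKi-1 WT, 12.8, 18.5, 18.9, 13.8 and 16.8 in CAKi-1 KO, 0.0826, 0.119 and 0.249 in 786O WT and 6.06, 5.47 and 4.99 in 786O KO. It was close to 0 in 786O WT and gave -1.14 in CAKi-1 and 2.50 in 786O, a difference of -3.64 (SE 0.16, adjusted p = 5.4e-10). IFITM2, which restricts virus entry, had -1.20 in CAKi-1 and 1.96 in 786O and a difference of -3.16 (SE 0.16, adjusted p = 1.7e-09). The calls of CD9 and IFITM2 in both lines were lost after neighbour centring, that of CD9 also with CAKi-1 KO replicates 2, 3 and 5 only.

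**Figure D4:**
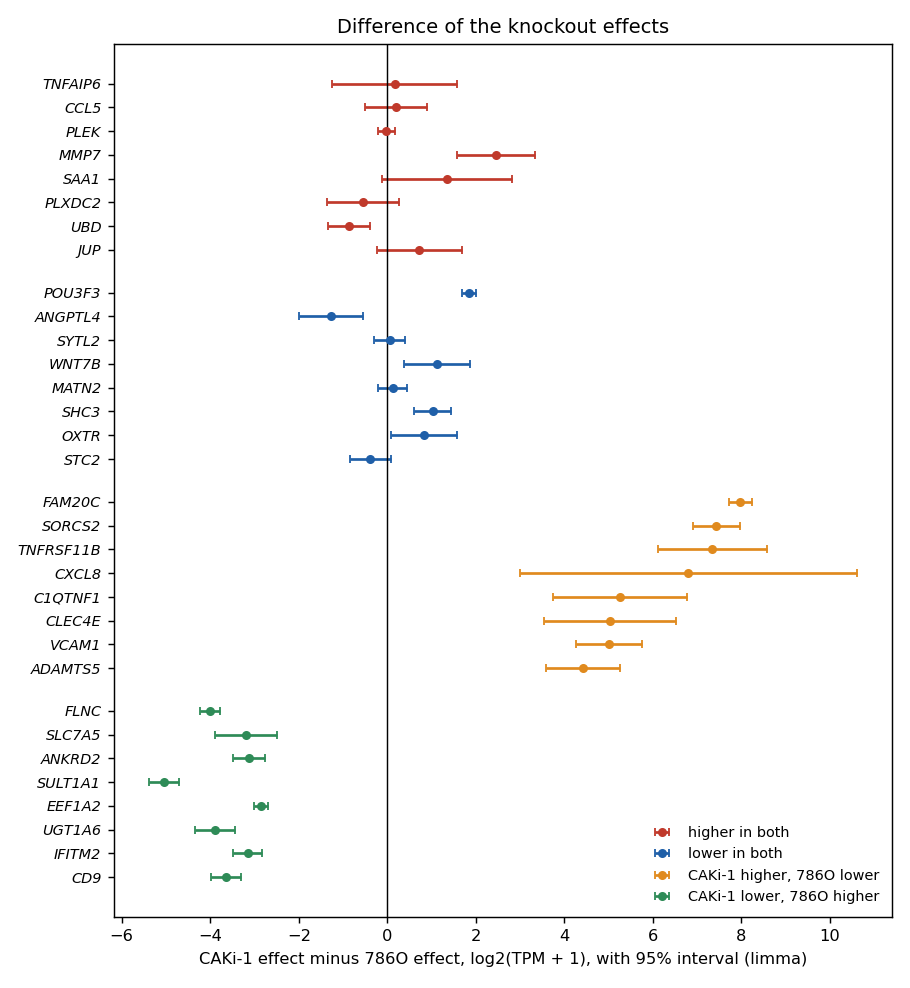
Difference of effects (CAKi-1 minus 786O, log2(TPM + 1)) with its 95% interval from limma for 8 genes of each class. Genes that moved together lie around 0 apart from MMP7, POU3F3 and a few others, whereas genes higher in CAKi-1 and lower in 786O lie to the right of 0 and the reverse class to the left. The interval of CXCL8, from 2.99 to 10.61, is the widest.

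Functions were then compared through 39 gene lists, of which each member present in both tables was counted. Set against 12.8% of all genes, the share of members with a called interaction was higher in 32 of the 39 lists. Of all genes, 7.95% had the higher and 4.87% the lower effect in CAKi-1, so a lean to the higher effect is shared with all genes. The lists had been written with results of these data known and are described by counts and medians only.

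**Figure D5:**
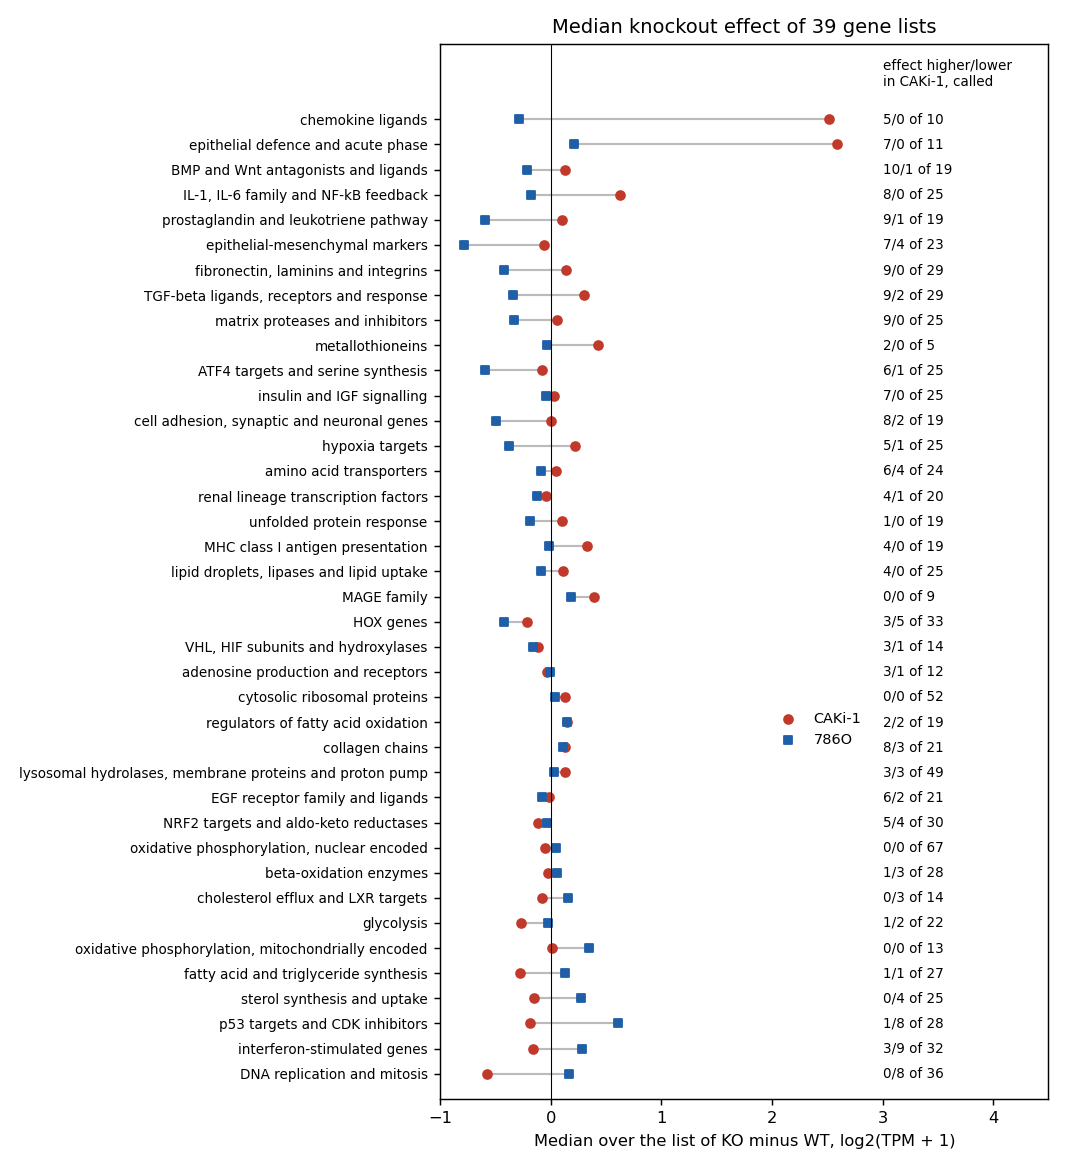
Median effect of each of 39 gene lists in CAKi-1 (red circles) and 786O (blue squares), as KO minus WT of log2(TPM + 1), ordered by the median difference of effects. The numbers at the right give the members whose effect was called higher and lower in CAKi-1 than in 786O, of the members compared. Chemokine ligands stand at 2.51 and -0.29, and DNA replication and mitosis genes at -0.58 and 0.17.

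The inflammatory lists held members called higher in CAKi-1 and had medians near or below 0 in 786O, apart from the acute-phase list. Of 10 chemokine ligands, 8 were called higher in CAKi-1, 2 higher and 4 lower in 786O, and the interaction was called for 5, all with the higher effect in CAKi-1, with median effects of 2.51 and -0.29. The 8 became 5 without CAKi-1 WT replicate 1, without WT replicate 2 and with KO replicates 2, 3 and 5 only. The other 2 called besides CXCL8, CXCL1 and CXCL5 were CXCL3, which gave 4.51 and -0.32, and CCL28, which gave 1.53 and -1.18. CCL5 and CX3CL1 rose in both lines, CX3CL1 by 1.96 and 1.11 with a difference of 0.85 (SE 0.24, adjusted p = 0.0074). Among 25 genes of the IL-1 and IL-6 families and of NF-kB feedback, 8 had the higher effect in CAKi-1 and none the lower, with medians of 0.63 and -0.18. Without CAKi-1 WT replicate 4 the 8 became 15 and the CAKi-1 median 1.09, with WT replicates 1 and 2 only 15 and 1.29, and with KO replicates 2, 3 and 5 only the median was 0.32. These 8 included the growth factor CSF1 (1.95 in CAKi-1 and -0.57 in 786O) and, on chromosome 14, the NF-kB inhibitor NFKBIA (1.42 in CAKi-1 and -0.45 in 786O), whereas the IL-1 receptor IL1R1 changed through 786O, with 0.42 in CAKi-1 and -2.14 in 786O. Of 11 epithelial defence and acute-phase genes, 7 had the higher effect in CAKi-1, with medians of 2.59 and 0.21. LCN2, an iron-chelator-binding lipocalin, measured 1.91, 1.42, 8.26 and 25.1 TPM in CAKi-1 WT, 335, 153, 117, 307 and 127 in CAKi-1 KO, 0.124, 0.345 and 0.278 in 786O WT and 1.37, 0.969 and 1.28 in 786O KO. Its effects had the same sign, 4.88 in CAKi-1 and 0.82 in 786O, and differed by 4.06 (SE 0.90, adjusted p = 0.0016). In complement C3 (2.66 and 0.85) and SAA2 (3.44 and 0.69) the signs were also the same, and in PTX3 (2.98 and -0.94) they were opposite.

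Interferon-stimulated genes leaned the other way. Of 32, 9 had the lower and 3 the higher effect in CAKi-1, with medians of -0.16 and 0.28. IFI27, a mitochondrial interferon-induced protein on chromosome 14, measured 202, 183, 200.03 and 189 TPM in CAKi-1 WT, 41.4, 54.8, 42.9, 49.2 and 44.4 in CAKi-1 KO, 257, 278 and 276 in 786O WT and 456, 454 and 451 in 786O KO. Its effects of -2.04 in CAKi-1 and 0.74 in 786O gave a difference of -2.78 (SE 0.11, adjusted p = 2.2e-10), opposite to the lean of its chromosome in 786O. IFIT3, which acts on viral RNA sensing, measured 11.4, 11, 13.4 and 13.2 TPM in CAKi-1 WT, 7.18, 11.7, 9.5, 9.04 and 10.8 in CAKi-1 KO, 38.7, 35.7 and 38 in 786O WT and 78.4, 78.7 and 81 in 786O KO. It gave -0.33 and 1.06 in CAKi-1 and 786O, ISG20 -0.39 and 1.21, DDX60 -0.05 and 1.46 and ISG15 -0.61 and 0.47. MX1 went the other way, with -0.11 and -1.89. MHC class I antigen presentation genes, 4 of 19 with the higher effect in CAKi-1 and none with the lower, included HLA-B, HLA-C and HLA-F. HLA-B measured 344, 305, 354 and 364 TPM in CAKi-1 WT, 1095, 798, 759, 1076 and 739 in CAKi-1 KO, 1080.0, 1064 and 1067 in 786O WT and 805, 798 and 787 in 786O KO, with effects of 1.36 in CAKi-1 and -0.43 in 786O and a difference of 1.79 (SE 0.18, adjusted p = 1.5e-06). These genes are similar in sequence and polymorphic, so their single values are uncertain.

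Called members of the matrix and adhesion lists more often had the higher than the lower effect in CAKi-1, as did those of all genes. For 29 fibronectin, laminin and integrin genes the medians were 0.14 and -0.42. Within the lines, 2 were called higher in CAKi-1 and 6 lower in 786O, with none the other way. The interaction was called for 9, none with the lower effect in CAKi-1. The 9 became 6 with CAKi-1 KO replicates 2, 3 and 5 only and 5 after neighbour centring. Of 25 matrix proteases and inhibitors the interaction was called for 9, again none lower, with medians of 0.06 and -0.33. In CAKi-1 itself 4 were called higher and 1 lower, and in 786O 1 higher and 5 lower. MMP2, the gelatinase of many stromal and tumour cells, measured 39, 37.8, 38.8 and 37.2 TPM in CAKi-1 WT, 75.3, 41.5, 31.4, 80.2 and 38.3 in CAKi-1 KO, 202, 191 and 191 in 786O WT and 6.24, 5.24 and 6.42 in 786O KO. Only the 786O groups were far apart, with 0.37 in CAKi-1 and -4.82 in 786O and a difference of 5.19 (SE 0.35, adjusted p = 3.8e-08). MMP14, its activator, on chromosome 14, gave 1.5 in CAKi-1 and -0.88 in 786O, and TIMP1 gave 0.43 in CAKi-1 and -0.80 in 786O. Of 21 collagen chains 8 had the higher and 3 the lower effect in CAKi-1, and 6 were called in opposite directions in both lines, but the list's median difference of 0.02 changed sign under 5 alternatives. COL4A1 and COL18A1 of basement membranes were among the 3, with 0.13 and 1.25 and 0.32 and 1.38, and COL17A1 with -1.09 and 0.45. COL1A1, which is also 1 of the fibroblast markers given above, gave 1.72 in CAKi-1 and 0.19 in 786O.

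The signalling lists each had more called members with the higher than with the lower effect in CAKi-1, as did all genes. For 29 TGF-beta ligands, receptors and response genes the medians were 0.30 and -0.34. In the interaction 9 had the higher and 2 the lower effect in CAKi-1. TGFB2 measured 3.78, 2.9, 2.77 and 2.77 TPM in CAKi-1 WT, 47.7, 36.2, 33.8, 53.8 and 32.8 in CAKi-1 KO, 39.1, 38.2 and 37.2 in 786O WT and 33.4, 35.8 and 36.2 in 786O KO. It rose in CAKi-1 and stayed within a small range in 786O, with 3.35 in CAKi-1 and -0.12 in 786O and a difference of 3.46 (SE 0.20, adjusted p = 1e-08). INHBA, the activin A subunit, moved in opposite directions with 1.57 in CAKi-1 and -1.5 in 786O, and LTBP4, which stores latent TGF-beta in matrix, gave 0.76 in CAKi-1 and -4.11 in 786O. SMAD3, which carries the signal of TGF-beta receptors to the nucleus, was among the exceptions, with -1.04 and 0.25. Of 19 BMP and Wnt ligands and antagonists 10 had the higher and 1 the lower effect, WNT5A among the former with 1.09 and -1.96, GREM1 with 2.57 and -0.02 and WNT5B with -0.12 and -4.37. Of 25 insulin and IGF signalling genes 7 had the higher effect and none the lower. These counts became 3 and 1 with quantile normalization, 4 and 1 with CAKi-1 KO replicates 2, 3 and 5 only and 6 and 1 after neighbour centring. IGF2 measured 0.103, 0.102, 0.0117 and 0.264 TPM in CAKi-1 WT, 27.2, 17.9, 17.9, 24.2 and 15.5 in CAKi-1 KO, 0.0243, 0.0541 and 0.0307 in 786O WT and 0.0358, 0.00613 and 0.0241 in 786O KO. It appeared in CAKi-1 KO only, with 4.24 in CAKi-1 and -0.02 in 786O and a difference of 4.26 (SE 0.20, adjusted p = 1.2e-09), and its binding protein IGFBP3 gave 3.29 and 0.34. Of 21 genes of the EGF receptor family and its ligands 6 had the higher and 2 the lower effect, AREG with 1.15 and -0.72 and EGFR itself with -0.64 and 0.39. The list's median difference of -0.07 changed sign under 5 alternatives.

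Of 23 epithelial and mesenchymal markers, 3 were called higher and 4 lower in CAKi-1, and none higher and 7 lower in 786O. In the interaction 7 had the higher and 4 the lower effect in CAKi-1, with medians of -0.07 and -0.78. The 4 with the lower effect were KRT19, KRT8, KRT18 and OCLN. KRT8 measured 1702, 1643, 1486 and 1223 TPM in CAKi-1 WT, 265, 493, 566, 305 and 498 in CAKi-1 KO, 609, 645 and 632 in 786O WT and 455, 449 and 465 in 786O KO, and its effects of -1.88 in CAKi-1 and -0.46 in 786O had the same sign in both lines with a difference of -1.42 (SE 0.30, adjusted p = 0.0012). CDH2, N-cadherin, gave -1.33 and -0.78 and VIM -0.50 and -0.40 in CAKi-1 and 786O, with no called difference. CDH11, a mesenchymal cadherin, was expressed in 786O WT only, with -0.14 in CAKi-1 and -4.99 in 786O, while SNAI2 rose in CAKi-1, with 1.67 in CAKi-1 and -0.02 in 786O, and the tight junction protein CLDN1 was called in opposite directions, with 1.56 in CAKi-1 and -1.67 in 786O.

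The cell cycle and p53 lists leaned the other way from the inflammatory and matrix lists. Of 36 DNA replication and mitosis genes none had the higher and 8 the lower effect in CAKi-1, with medians of -0.58 and 0.17, and 1 member was called within a line. The 8 became 5 without CAKi-1 KO replicate 1 or without KO replicate 4, 4 after neighbour centring and 4 with KO replicates 2, 3 and 5 only, where the CAKi-1 median was -0.24. The member called within a line was RRM2, a ribonucleotide reductase subunit, which measured 127, 126, 136 and 133 TPM in CAKi-1 WT, 62.8, 98.4, 117, 60.8 and 123 in CAKi-1 KO, 123, 119 and 110.3 in 786O WT and 249.9, 259.8 and 247 in 786O KO. Its effects were -0.56 in CAKi-1 and 1.10 in 786O, a difference of -1.66 (SE 0.28, adjusted p = 0.00021). MCM2, of the replicative helicase, measured 99.1, 101, 98.9 and 99 TPM in CAKi-1 WT, 40.3, 71.6, 76.7, 43 and 71.6 in CAKi-1 KO, 69.8, 69.6 and 68.8 in 786O WT and 105, 103 and 104 in 786O KO, with -0.76 in CAKi-1 and 0.58 in 786O and a difference of -1.34 (SE 0.26, adjusted p = 0.00057). In both genes CAKi-1 KO replicates 1 and 4 were the lowest libraries. Of 28 p53 targets and CDK inhibitors 8 had the lower and 1 the higher effect in CAKi-1, with medians of -0.19 and 0.60. CDKN1A, the inhibitor p21, measured 198, 212, 198 and 208 TPM in CAKi-1 WT, 160.0, 152, 145, 155 and 142 in CAKi-1 KO, 61.1, 58.2 and 58.8 in 786O WT and 218, 220.1 and 223 in 786O KO. The groups were apart in both lines, with -0.43 in CAKi-1 (SE 0.052, adjusted p = 0.00027) and 1.87 in 786O (SE 0.037, adjusted p = 4.1e-07) and a difference of -2.31 (SE 0.068, 95% interval -2.45 to -2.16, adjusted p = 1.3e-11). BTG2 (-0.75 and 1.63), MDM2 (-0.49 and 1.11), which degrades p53, and ZMAT3 (-0.15 and 1.26) moved likewise, and CDKN1C was the exception with -0.67 and -3.26.

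Hypoxia genes divided. Of 14 VHL, HIF subunit and hydroxylase genes 3 had the higher and 1 the lower effect in CAKi-1. HIF1A (ENSG00000100644.17, chr14:61695513-61748259, plus strand), on chromosome 14, measured 275, 265, 278 and 291 TPM in CAKi-1 WT, 272, 218, 217, 282 and 214 in CAKi-1 KO, 186, 181 and 174 in 786O WT and 13.3, 17.5 and 18.2 in 786O KO. It was called in 786O only, with -0.21 in CAKi-1 and -3.40 in 786O and a difference of 3.19 (SE 0.16, 95% interval 2.85 to 3.52, adjusted p = 1.8e-09). EPAS1, which encodes HIF-2 alpha, measured 26.1, 24.2, 27.6 and 32 TPM in CAKi-1 WT, 118, 109, 107, 129.6 and 98.3 in CAKi-1 KO, 90.3, 85.6 and 82.8 in 786O WT and 63.5, 66.2 and 64.2 in 786O KO. It was called in CAKi-1 only, with 1.99 in CAKi-1 and -0.41 in 786O and a difference of 2.40 (SE 0.13, 95% interval 2.12 to 2.68, adjusted p = 4.5e-09). EGLN3, an oxygen-sensing hydroxylase on chromosome 14, went the other way with -0.29 in CAKi-1 and 1.45 in 786O. Among 25 hypoxia targets, with medians of 0.21 and -0.38, 5 had the higher and 1 the lower effect, LOX, which crosslinks collagen, giving 0.61 in CAKi-1 and -3.78 in 786O, while STC2 fell and NDRG1 rose in both lines as described. With CAKi-1 KO replicates 2, 3 and 5 only the CAKi-1 median of the targets was -0.05. Among 22 glycolysis genes 1 had the higher effect, HK2 with 0.17 and -1.39, and 2 the lower, ENO2 with -0.63 and 1.04 and ALDOA with -0.45 and 0.99, the call of ALDOA being lost after neighbour centring.

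The interaction was called for 12.8% of all genes. In the lipid lists the share ran from 7.41%, for fatty acid and triglyceride synthesis, to 21.4%, for cholesterol efflux. Of 25 sterol synthesis and uptake genes none had the higher and 4 the lower effect in CAKi-1, with medians of -0.15 and 0.27. The 4 became 2 without CAKi-1 KO replicate 1 and with KO replicates 2, 3 and 5 only. MSMO1, a sterol demethylation enzyme, measured 20.2, 21.5, 19.8 and 21.4 TPM in CAKi-1 WT, 19.1, 21.9, 21, 19.6 and 19.2 in CAKi-1 KO, 64.6, 66.3 and 61.5 in 786O WT and 198, 199 and 206 in 786O KO. It was called in 786O only, with -0.04 in CAKi-1 and 1.63 in 786O and a difference of -1.67 (SE 0.077, adjusted p = 8.7e-10), and INSIG1 gave -0.43 and 1.17. Of 14 cholesterol efflux genes 3 had the lower effect, ABCA1 with -0.16 and 1.14, a call lost after neighbour centring. Of 27 fatty acid and triglyceride synthesis genes 1 had the higher effect, SCD5 with 0.11 and -2.54, and 1 the lower, ACSL5 with -1.0 and 0.84. With CAKi-1 KO replicates 2, 3 and 5 only 3 had the lower effect. Of 25 lipid droplet, lipase and uptake genes 4 had the higher effect, LIPG among them. Of 28 beta-oxidation enzymes 1, CPT1B, had the higher and 3 the lower effect, CPT1A, ECHS1 and EHHADH, with medians of -0.03 and 0.05, the calls of ECHS1 and EHHADH being lost after neighbour centring. Of 19 regulators of fatty acid oxidation, which include PPARGC1A, IRS1 and CPT1A, 2 had the higher and 2 the lower effect. Its medians were 0.15 in both lines, and the sign of the median difference changed under 8 alternatives. Of 49 lysosomal genes, the hydrolases that include LIPA and the proton pump, 3 had the higher and 3 the lower effect, with medians of 0.13 and 0.03, and the sign of the median difference changed under 6 alternatives.

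Amino acid genes were called in both directions. Of 24 amino acid transporters 6 had the higher and 4 the lower effect in CAKi-1, a split near that of all genes (1212 and 742). SLC38A5, a glutamine and glycine transporter, measured 0.297, 0.678, 0.306 and 0.302 TPM in CAKi-1 WT, 0.35, 0.266, 0.161, 0.285 and 0.262 in CAKi-1 KO, 300.3, 293 and 301 in 786O WT and 0.464, 0.307 and 0.577 in 786O KO. It was near 0 in both genotypes of CAKi-1 and was lost in 786O KO, with -0.13 in CAKi-1 and -7.69 in 786O and a difference of 7.56 (SE 0.13, 95% interval 7.29 to 7.83, adjusted p = 3.2e-14). SLC7A7, a partner of the same heavy chain as SLC7A5, on chromosome 14, moved in the direction opposite to SLC7A5, with 1.80 in CAKi-1 and -1.32 in 786O, a call lost in 1 line after neighbour centring. Among 25 ATF4 targets and serine synthesis genes 6 had the higher and 1 the lower effect, with medians of -0.08 and -0.60. PCK2 and WARS1, both on chromosome 14, gave 0.32 and -2.19 and -0.01 and -1.74, ASNS, asparagine synthetase, gave -0.01 and -1.19, and ATF3 was the exception with -0.16 and 1.66.

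The remaining lists were mixed. Among 19 prostaglandin and leukotriene genes 9 had the higher effect in CAKi-1 and 1, PTGS1, the lower, with medians of 0.10 and -0.60; PTGIS, prostacyclin synthase, gave 0.10 and -3.48 and PTGES, a prostaglandin E synthase, 1.52 and -0.42. Of 19 cell adhesion, synaptic and neuronal genes 8 had the higher and 2 the lower effect, STMN3, a microtubule regulator, with 1.43 and -4.99, AUTS2 with -0.06 and -5.14 and UCHL1 with -0.43 and 1.43. Of 30 NRF2 targets and aldo-keto reductases 5 had the higher effect, HMOX1, heme oxygenase 1, with 0.62 and -2.19, and 4 the lower, TXNRD1, thioredoxin reductase, with -0.99 and 0.99. Of 33 HOX genes 3 had the higher and 5 the lower effect, these 5 being HOXB5 to HOXB9 of 1 cluster, HOXB8 with -2.35 and -0.90 and HOXB7 with -0.98 and 0.57. Of 20 renal lineage transcription factors 4 had the higher effect, POU3F3 among them, and 1, FOXC1, the lower with -2.54 and -0.08. The counts became 7 and 3 with a pseudocount of 0.1. Of 12 adenosine genes 3 had the higher effect, among them the receptor ADORA2A with 2.54 and -1.36 and the 5′-nucleotidase NT5E with -0.11 and -1.80, and 1, ADORA1, the lower. Of 5 metallothioneins, near-identical copies, 2 had the higher effect. Of 19 unfolded protein response genes SEL1L, on chromosome 14, was the only one called, with 0.32 and -0.97, and that call was lost after neighbour centring. In this list 2 were called without CAKi-1 WT replicate 4, with WT replicates 1 and 2 only and with KO replicates 2, 3 and 5 only.

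For 4 lists no member was called in the interaction, and none in either line, though under some alternatives 1 member of a list was called. For 67 nuclear-encoded oxidative phosphorylation genes the median effects were -0.05 and 0.04 and the median difference -0.10, which turned positive with quantile normalization. For 13 mitochondrially encoded genes they were 0.01 and 0.34, with a difference of -0.26 that turned positive after neighbour centring. For 52 cytosolic ribosomal proteins they were 0.12 and 0.04, with a difference of 0.08. For 9 MAGE family genes they were 0.39 and 0.18, and 14 further members of that list were not listed for both lines.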

How the data were processed

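The authors made poly(A) RNA libraries, sequenced them as paired ends and quantified the reads with kallisto on hg38 (version not given in the sources used here); the deposited tables, 1 for each line, hold TPM values per gene and library. The step from transcripts to genes, and any gene filter, is likewise not given in those sources. The library totals were 961437 to 973887 TPM, of which 98.6% to 99.8% fell in genes of both tables and 6.39% to 10.0% in mitochondrially encoded genes. The published methods name a planned number of reads per sample, but no count or depth per library is in the tables, so the depth behind single values is unknown and low values carry an error that cannot be stated.

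Values were taken as log2(TPM + 1) with no filter. KO minus WT was fitted within each line, and the genotype by line interaction over all 15 libraries with 4 group means, with limma 3.58.1 in R 4.3.3 (lmFit, contrasts.fit, eBayes, two-sided, Benjamini-Hochberg adjustment over the 15247 genes), and calls required an adjusted p of at most 0.05 and an absolute value of at least 1. The main fits were first tested on made-up data with known changes, in CAKi-1 alone or of the same size in both lines. Changes in opposite directions and the alternative settings were not tested in this way. Gene symbols are those of the tables. Identifiers and positions are those of GENCODE 44 (GRCh38), joined by symbol or by an older symbol.

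Genes were named by rule: those the study names in these data or measured by PCR, the 8 of each class with the largest smaller effect, the 6 largest differences each way, and up to 3 members of each list called in both lines and in the interaction, beside textbook members given as values. Full lists of the smaller classes and some further members (for example the windows with a kappaB match) were added after their values were seen. Some genes that the rule names are not reported here. The members, the 39 lists and this rule were chosen with earlier results of these data known. Alternatives were a pseudocount of 0.1, a mean TPM of at least 1 in a group, quantile normalization within a line, other eBayes options, a spread of its own for each line, a spread shared by both, a replicate block, leaving out each library, CAKi-1 KO replicates 2, 3 and 5 only, other thresholds, and neighbour centring, which subtracts the median deviation of 25 expressed genes on each side of a gene in each library. CAKi-1 WT replicates 1 and 2 only was added after seeing the data.

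Nothing in the sources says whether replicate numbers pair the samples. Across genes, the deviations of same-numbered WT and KO libraries of a line correlated between -0.07 and 0.15, and 1 of 7 libraries correlated best with its own number. Weak correlations in groups this small cannot exclude a pairing.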

Additional observations from a re-analysis of the deposited data

Results flagged for a closer look

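The difference of effects was called for 1212 genes with the higher effect in CAKi-1 than in 786O and for 742 with the lower, by limma's genotype by line interaction. For ANGPTL4 itself the difference was -1.27, the fall in KO being larger in CAKi-1.

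Among 82 groups of 4 or 5 libraries tested for a single library far from the others by Dixon's criterion, 4 held one, and chance gives about 1 in 20. SULT1A1 was 34.2 TPM in CAKi-1 WT replicate 1, above the other WT libraries. CD9 was 38.9 TPM in CAKi-1 WT replicate 2, above the others. TGFB2 was 3.78 TPM in CAKi-1 WT replicate 1 and SLC38A5 0.678 TPM in CAKi-1 WT replicate 2, both above the others. The call of the difference of effects for these 4 genes held without any of these libraries.

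Genes listed for 1 line alone could not be compared between lines. Of 1049 listed for CAKi-1 only, 39 were called in KO against WT there (25 higher, 14 lower), and of 941 listed for 786O only, 64 were called (22 higher, 42 lower).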

How the results depend on the processing

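The ANGPTL4 difference kept its sign and call under all alternatives run for it, which leave out treat. The interaction count of 1954 genes, the 61 genes called in the same direction and the 99 in opposite directions stayed within 1.5 times their value under all alternatives but 3. With a pseudocount of 0.1 the counts were 3005, 132 and 193, of which 1938, 61 and 99 were shared. With the adjusted p alone they were 8404, 1862 and 2459. With limma's treat against a difference of 1 the interaction count was 728. Leaving out single libraries moved none of these 3 counts past 1.5 times.

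Neighbour centring gave 1667, 54 and 94 genes, of which 1326, 46 and 79 were shared. CAKi-1 KO replicates 2, 3 and 5 only gave 1741, 55 and 80, and CAKi-1 WT replicates 1 and 2 only gave 2008, 65 and 101. Quantile normalization gave 1892, 62 and 92, and moved the share of 786O calls that were higher from 31.7% to 42.2%; the cause was not tested. Of the named genes, 125 of 146 differences and 45 of 64 calls in both lines kept their call under the alternatives run for single genes, which leave out treat. Of those not given with their genes, the differences of IDI1 and G0S2 and the calls in both lines of COL9A2, CDH13 and SYT12 were lost with CAKi-1 KO replicates 2, 3 and 5 only, those of IDI1, COL9A2 and SYT12 also without KO replicate 1. The differences of PLK1 and ATP6V0C, both on chromosome 16, were lost after neighbour centring, and the calls of SHISA9, NUPR1 and 1 gene not reported here under at least 1. The differences of UBD, NUPR1 and PPARA passed under at least 1, and those of LIPA and VHL with the adjusted p alone.

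With the replicate block the counts were 2061, 64 and 104 and the ANGPTL4 difference was -1.17. Whether the numbers pair the samples is not known, so the block is given as an alternative only.

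The depth of each library is unknown, though the study's methods name a planned depth, genes under 1 TPM are compressed by the pseudocount, and the residual SD differed between the lines.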

Other observations

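Several genes of the functions described above appear in the table of 1 line only. For CAKi-1, the elastase inhibitor PI3 was 0.258 to 4.59 TPM in WT and 147 to 319 TPM in KO, a KO minus WT effect of 6.65 on the log2(TPM + 1) scale, and SLPI, a related antiprotease of epithelia, rose by 3.94. The transcription factor RUNX3 rose by 2.47 and the antimicrobial peptide DEFB1 by 2.2, whereas the BMP family ligand GDF5 fell by 2.24 and the Wnt inhibitor DKK1 fell by 2.08.

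For 786O, CHRDL1, a BMP antagonist, was 123 to 129.7 TPM in WT and 0.416 to 0.626 TPM in KO, an effect of -6.42. SFRP2, a secreted Wnt inhibitor, fell by 4.12 on the log2 scale, the prostaglandin transporter SLCO2A1 fell by 4.03 and the hypoxia target CA9 fell by 2.73. NDN, a MAGE family member, rose by 3.84 and the interferon-induced RSAD2 by 2.39, and the renal lineage factor PAX2 by 1.78. All of these passed limma's test within their line, adjusted over the genes of that line's table, and their effect in the other line was not analysed here.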
